A study of Mus musculus with 10 samples.

Results

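Dlx2 chromatin immunoprecipitation and sequencing (ChIP-seq) of mouse cortex at embryonic day 16 (E16) gave 2427 regions that no other tissue or age of the study had. They were chosen by pooling the called regions of all 5 Dlx2 lists on chromosomes 1 to 19 and X, merging those that overlapped by at least 1 bp, and keeping merged regions built from the E16 cortex list alone. They make up 13.0% of the 18606 merged regions and 38.5% of the 6307 E16 cortex regions on these chromosomes. Below they are called cortex-only regions, and the other 3880 E16 cortex regions, each joined to a region of another list, are called shared cortex regions.

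The study profiled Dlx2 in the E16 cortex, the P3 (postnatal day 3) cortex, the E16 and P3 olfactory bulb and the E16 basal ganglia, with 1 immunoprecipitated library for each. Input libraries of the same tissues make up the other 5 of its 10 samples and were not analysed here, nor were the IgG control reactions that the protocol describes. The sources used here do not give strain, sex, genotype or the number of animals behind a library, and whole tissue was used, so the cells that gave a region are unknown. With 1 library per group no difference between tissues or ages was tested, and each statement compares these libraries. The 95% intervals are exact Clopper-Pearson intervals and cover counting error only. Neighbouring regions are not independent, so these intervals are too narrow. Nor do they give the read depth, so a region can be missing from a list because the site was unbound or because it fell below that library's threshold, and these cannot be told apart.

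Dlx2 is a homeodomain transcription factor made in progenitors of the ganglionic eminences, the embryonic basal ganglia, and in the GABAergic interneurons that migrate from there into the cortex and olfactory bulb. Homeodomain proteins contact DNA at short sites with an ATTA core. The excitatory, glutamatergic neurons of the cortex come from another lineage, born from cortical progenitors that use Emx1, Pax6 and Neurog2, and Dlx genes are known for promoting the GABAergic fate over that one. A called region shows enrichment of the precipitated chromatin at a place, not whether the gene there is expressed.

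Sequences are printed here for a microRNA cluster and 3 promoters, though few members covered a hairpin or a gene start. The cortex-only region at chr14:115043462-115044774 (mm10), 1313 bp wide with a fold enrichment of 8.24, contained all 6 hairpins of the miR-17~92 cluster, a set of small RNAs known for promoting the proliferation of progenitor cells. It also covered the annotated start of the host transcript Mir17hg, but its summit (highest point) lay outside annotated genes, 48 bp from the Mir18 hairpin. A second member, with a fold enrichment of 5.00, lay 485 bp from the region. The nearest E16 basal ganglia region was 400.1 kb from the larger one. One mature strand of each hairpin is given here from RefSeq (GRCm38.p6), 5′ to 3′, with the seed, bases 2 to 8, in capitals.
mmu-miR-17-5p: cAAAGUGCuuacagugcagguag
mmu-miR-20a-5p: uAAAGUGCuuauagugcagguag
mmu-miR-18a-5p: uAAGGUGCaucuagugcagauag
mmu-miR-19a-3p: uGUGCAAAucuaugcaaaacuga
mmu-miR-19b-3p: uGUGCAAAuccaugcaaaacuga
mmu-miR-92a-3p: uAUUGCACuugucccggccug
The seeds of miR-17 and miR-20a were the same, as were those of miR-19a and miR-19b, and miR-18a and miR-92a each had their own. The other 4 members with a hairpin held 1 each, Mir6915 in Ankrd52 (fold enrichment 5.43), Mir6939 in Akt1 (4.58), Mir8094 in Ddx39b (4.56) and Mir7020 in Aldh4a1 (3.36). In all, 5 of the 2427 cortex-only regions overlapped 10 hairpins, against 44 of the 3880 shared cortex regions with 55. Of regions built from the E16 basal ganglia list alone, 17 of 9377 overlapped 18. Of those from the P3 cortex list alone, 1 of 1363 overlapped 1. In all, 1005 hairpins were searched. A wider region is more likely to reach a hairpin, and the shared cortex regions were wider than the members (median 753 bp against 430 bp). The part of width in these counts was not tested.

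Few members covered a gene start, and the promoters of the 3 protein-coding genes with the strongest of these are shown. Each sequence runs from 250 bases before to 50 bases after an annotated start (RefSeq, GRCm38.p6), 5′ to 3′ on the strand of the gene, with each ATTA of either strand (ATTA or TAAT) in capitals. Mpped1, which encodes a metallophosphoesterase, had a member with a fold enrichment of 9.32 over a start 5.36 kb inside the annotated gene (chr15:83784579-83784878, plus strand). At Nmb, the gene of the neuropeptide neuromedin B, the fold enrichment was 6.75 (chr7:80905013-80905312, minus strand). At Rabggtb, a subunit of the enzyme that attaches lipid anchors to Rab proteins, it was 6.29, over a start 2.00 kb inside the gene (chr3:153910918-153911217, minus strand).
Mpped1: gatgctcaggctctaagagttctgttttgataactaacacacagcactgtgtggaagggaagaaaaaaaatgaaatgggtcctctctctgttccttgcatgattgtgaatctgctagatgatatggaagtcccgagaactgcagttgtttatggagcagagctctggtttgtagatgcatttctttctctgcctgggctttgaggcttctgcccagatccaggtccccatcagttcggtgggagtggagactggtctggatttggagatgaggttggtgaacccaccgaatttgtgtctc
Nmb: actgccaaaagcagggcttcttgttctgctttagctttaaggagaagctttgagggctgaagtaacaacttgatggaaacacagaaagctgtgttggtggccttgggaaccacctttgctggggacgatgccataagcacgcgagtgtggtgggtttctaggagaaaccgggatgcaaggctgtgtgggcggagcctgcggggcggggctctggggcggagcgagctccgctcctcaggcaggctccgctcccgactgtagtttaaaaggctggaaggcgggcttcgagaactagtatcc
Rabggtb: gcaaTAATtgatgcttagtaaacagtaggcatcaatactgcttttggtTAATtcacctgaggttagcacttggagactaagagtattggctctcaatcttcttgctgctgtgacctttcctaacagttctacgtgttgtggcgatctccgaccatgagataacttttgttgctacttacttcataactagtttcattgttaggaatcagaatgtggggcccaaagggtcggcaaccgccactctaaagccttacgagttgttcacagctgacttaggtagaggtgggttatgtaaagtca
The Mpped1 and Nmb windows held 0 ATTA and that of Rabggtb held 2. An ATTA on either strand was present in 15 of 29 promoters whose start a member covered (51.7%, 32.5% to 70.6%). The share was 47.3% of 237 covered by shared cortex regions and 73.9% of 399 covered by regions built from the E16 basal ganglia list alone. It was 50.8% of 124 covered by regions of the P3 cortex list alone and 58.0% of all 32619 promoters. The longer TAATTA, which contains ATTA, was in 0 of the 29, which allows up to 11.9%. It was in 4.22% of promoters covered by shared cortex regions and 11.3% by basal-ganglia-only regions. For regions of the P3 cortex list alone it was in 5.65%, and in 5.25% of all promoters. A GGGCGG box on either strand was in 48.3% of the 29 (29.4% to 67.5%) and in 35.9% of all promoters. It was in 46.0% of promoters covered by shared cortex regions, 42.6% by basal-ganglia-only regions and 58.9% by regions of the P3 cortex list alone. These matches describe the windows and not binding sites.

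Members were mostly weak regions of their list. Fold enrichment is the ratio of signal at the summit, the highest point of a region, over local background as the authors' caller wrote it, and −log10 q is the significance of that summit. Fold enrichment had a median of 4.56 in the cortex-only regions (lowest 1.41, highest 39.2) and of 5.65 in the shared cortex regions (lowest 1.51, highest 71.9). The median −log10 q was 6.53 against 9.79. A fold enrichment of at least 10 was reached by 40 members (1.65%, 1.18% to 2.24%) and by 580 shared cortex regions (14.9%). When all E16 cortex regions were ranked by −log10 q and split into 5 groups of equal size, members made up 10.5% of the strongest group, then 26.9%, 46.2%, 53.7% and 55.2% of the weakest. Of the 100 strongest cortex regions 1 was a member, and of the 500 strongest 19 were. Members were also narrow, with a median width of 430 bp against 753 bp, and 7.33% of them were wider than 1 kb, against 36.1% of the shared cortex regions. Without the basal ganglia list in the rule, 25.3% of the regions kept were wider than 1 kb. Strength and width bear on whether 2 lists overlap, so these values are a description of what the rule kept.

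**Figure D1:**
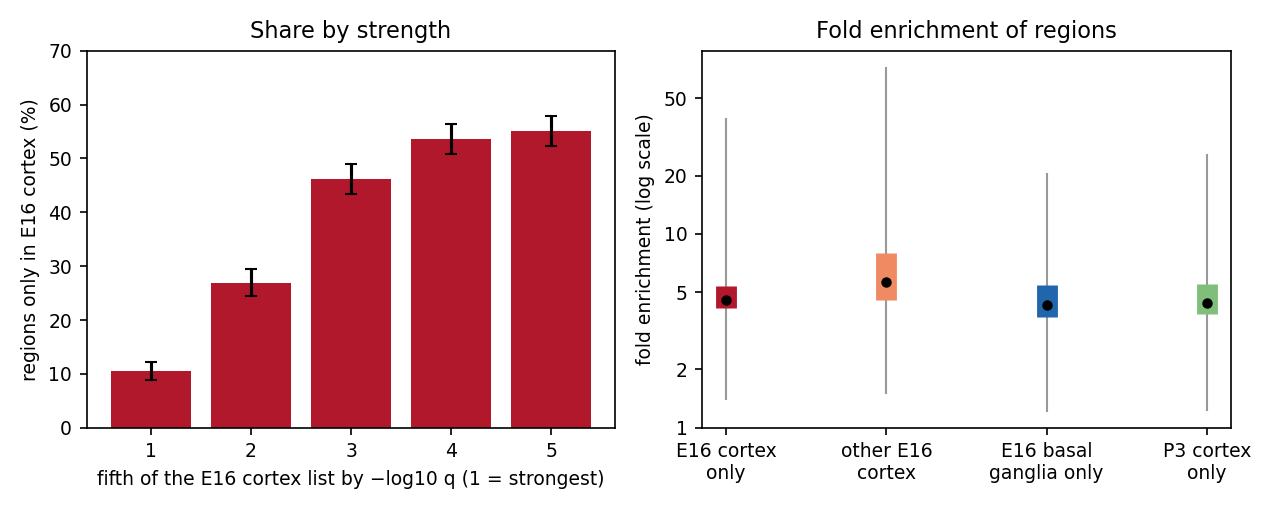
Left, share of E16 cortex regions that were cortex-only (%) in each of 5 equal groups of the list by −log10 q, from the strongest (1) to the weakest (5), with 95% Clopper-Pearson intervals as bars. Right, fold enrichment on a log axis in cortex-only, shared cortex, basal-ganglia-only and P3-cortex-only regions, where the point is the median, the box spans the quartiles and the line the whole range. The share runs from 10.5% in the strongest group to 55.2% in the weakest, and the medians on the right are 4.56, 5.65, 4.30 and 4.43.

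Membership was decided almost wholly by the E16 basal ganglia list. Of the 3880 shared cortex regions, 3638 were joined to basal ganglia regions alone, 4 to the P3 cortex alone and 1 to both bulb lists without the basal ganglia. Without the basal ganglia list the rule kept 6118 regions, and with that list alone deciding it kept 2432. The E16 basal ganglia list is the longest, with 14795 regions, and the P3 cortex list has 2139. At the edge of the rule, the closest members lay 1 bp (Nmb, fold enrichment 6.75), 2 bp (Msi2, 3.91) and 5 bp (Cmya5, 4.47) from a basal ganglia region. The least overlapping cortex regions left out touched one by 1 bp (Rpl3, 4.35, and Maged1, 4.78) and 4 bp (Meis2, 4.13).

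A basal ganglia region was within 10 kb of 1439 members (59.3%, 57.3% to 61.3%) and within 100 kb of 2183 (89.9%). Members also lay near each other, with another member within 10 kb of 1226 (50.5%) and a shared cortex region within 10 kb of 1198 (49.4%). No such share was computed for other regions or positions, so these values are a description.

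The strongest member lay within the long noncoding RNA gene Gm34259 (chr17:4625954-4626820, fold enrichment 39.2, 281 kb from the nearest basal ganglia region) and ranked 36 in the E16 cortex list. The next was in Emx1, the homeobox gene that marks cortical progenitors. It was 6279 bp wide (chr6:85189217-85195495) with a fold enrichment of 19.7. Its nearest basal ganglia region was 63.5 kb away, and a second member lay in the gene and another 1.97 kb outside it, with fold enrichments of 4.78 and 9.98. The remaining regions of highest significance were in Brd1, which encodes a bromodomain protein (18.4), in Ifnar1, an interferon receptor subunit (15.8), near Gm18326 (15.6), in Nfix (15.3, 13.0 and 11.7), Rbbp6 (15.4) and Dpp9 (14.3). Slc17a7, the vesicular glutamate transporter VGLUT1 of cortical excitatory neurons, held a member with a fold enrichment of 14.3 (chr7:45174409-45175677), 45.1 kb from the nearest basal ganglia region, at 90.7% of the way from the start to the end of the gene, and a second one of 5.74. The 20 of highest significance also included regions in Cntn2, a neuronal adhesion molecule gene (13.2), Trak1 (12.4), Tcf4 (12.3), Ppp2r1b (11.5) and Spty2d1 (11.5), and near Olfr854 (14.1), Gm6216 (12.6) and Gm13580 (12.6). The widest were in Nfix (6435 bp and 5080 bp), Emx1, Nfia (3183 bp) and Ifnar1 (2601 bp).

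A few genes held many members. In protein-coding genes that held any, members numbered 1.82 per gene, against 1.88 shared cortex, 2.04 basal-ganglia-only and 1.12 P3-cortex-only regions. Of the 2427, 2158 had the summit in a protein-coding gene, and the 10 genes with the most held 225 of these (10.4%), against 5.59% for the shared cortex regions and 4.33% for the basal-ganglia-only regions. Tcf4, a basic helix-loop-helix gene of neuronal differentiation, led by a wide margin: its body held 89 E16 cortex regions, 65 of them cortex-only, against 3 of the P3 cortex, 2 of the E16 bulb, 0 of the P3 bulb and 37 of the E16 basal ganglia. Nfib, of the nuclear factor I family that is required for formation of the corpus callosum, held 43 E16 cortex regions with 34 cortex-only, against 1 of the P3 cortex, 0 of the E16 bulb, 1 of the P3 bulb and 15 of the E16 basal ganglia. In both genes the E16 cortex list had more regions than the other lists together. The 10 genes with the most members were picked by that number, so a surplus of cortex over basal ganglia regions is partly set by the choice.

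Its relatives differed. Nfia held 18 E16 cortex regions, 13 of them cortex-only, against 19 of the basal ganglia. Nfix held 23, with 14 cortex-only, against 24 of the basal ganglia, and there the cortex regions covered 92.3% of the gene body and the basal ganglia regions 19.4%. The 3 strong Nfix members lay 137, 202 and 2752 bp from a shared cortex region.

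Other genes among the first 10 were Ttc28 (28 cortex-only regions), Tnrc18 (16), Tiam2 (15), a Rac activator gene, Zeb2 (15), Itsn1 (13) and Nedd4l (12). Nedd4l had 14 E16 cortex regions against 2 of the basal ganglia. Tiam2 had 17 against 3 and Itsn1 had 16 against 3, while Zeb2, which acts in migrating interneurons as well as in cortical neurons, had 30 against 24.

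**Figure D2:**
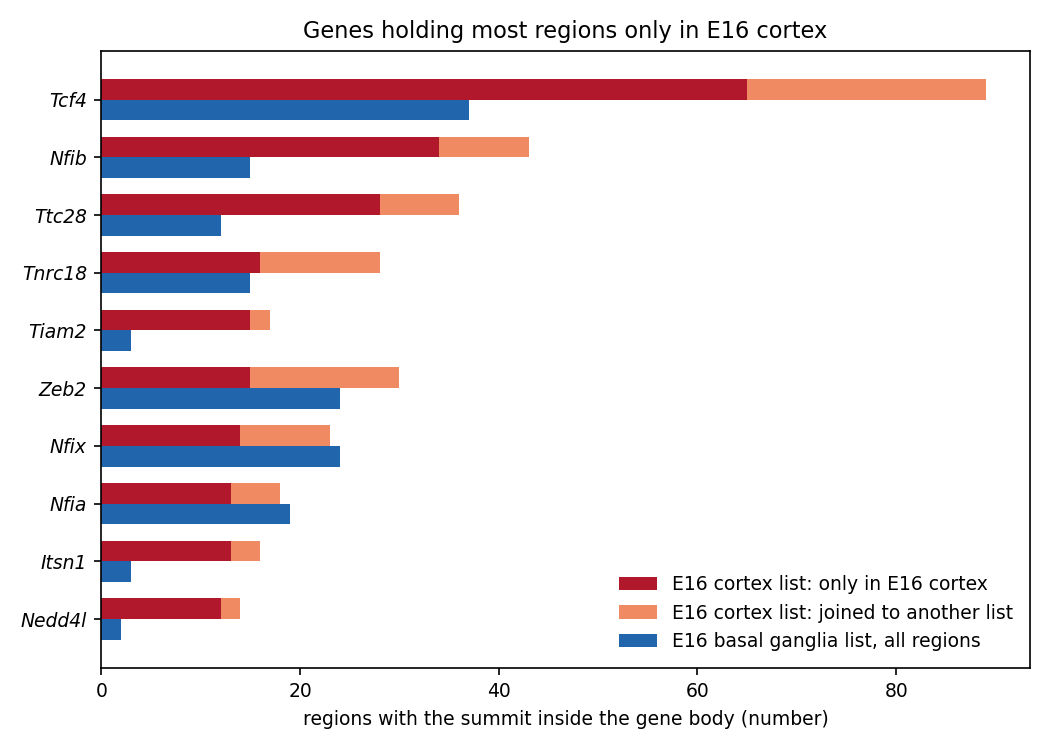
Number of regions with the summit inside the gene body for the 10 genes listed first by their number of cortex-only regions. The upper bar stacks cortex-only and shared regions of the E16 cortex list, and the lower bar is the whole E16 basal ganglia list. Tcf4 stands apart with 65 cortex-only regions, and Tiam2 has 15 in a total of 17 beside 3 of the basal ganglia.

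Over all genes, 1223 protein-coding genes held a member's summit in the body (5.65% of 21631), and 817 of these held 1. A basal ganglia summit was also present in 747 (61.1%), a shared cortex region in 588 (48.1%), and a P3 cortex region in 116 (9.48%). The 466 of the 1223 without any summit of another list (38.1%) were led by Cdon, a Sonic hedgehog co-receptor gene, with 10 members (fold enrichments 4.05 to 7.81), Tfap2c, an AP-2 transcription factor gene, with 6 (3.53 to 10.2, covering 44.9% of the gene), Tsc22d4 with 5 and Wnt7b, a Wnt ligand gene, with 4. These genes were named after their values were seen. The cortex list had more regions than the basal ganglia list in 802 of the 1223 genes (65.6%). Each of the 1223 genes was taken because it held a region of the cortex list alone, which favours the cortex list in this count. These shares were not computed for genes without a member, so they are a description.

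Along genes, members and shared cortex regions both sat toward the end. The summit lay inside an annotated gene for 92.1% (90.9% to 93.1%) of the cortex-only regions and 90.3% of the shared cortex regions, against 66.9% of the basal-ganglia-only regions and 55.3% of the 1363 regions built from the P3 cortex list alone. Of the 1631 members in protein-coding genes with a known strand, 25.9% (23.8% to 28.1%) fell in the last 10% of the gene, against 22.4% of the shared cortex regions, 11.6% of the basal-ganglia-only and 6.64% of the P3-cortex-only regions. By distance the order of the cortex sets was the other way, with 19.4% (17.5% to 21.4%) of members and 21.3% (19.7% to 23.0%) of shared cortex regions within 2 kb inside the gene end. The first 10% held 5.15% (4.13% to 6.34%) of members, against 10.3%, 13.7% and 18.1% in the same order. The median position was 69.6% of the way along the gene for members, against 63.5% for shared cortex regions and 50.5% for basal-ganglia-only regions. Slc17a7 and Rbbp6, at 97.5% of its length, are strong members near a gene end. In genes longer than 100 kb the last 10% held 29.2% of members, against 26.3% of shared cortex and 11.7% of basal-ganglia-only regions. With only the strongest member of each gene counted, the last 10% held 27.5%, an alternative chosen after seeing the data.

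An annotated gene start was covered by 29 of 2306 members off chromosome 18 (1.26%, 0.844% to 1.80%), for which the promoter table has no entry. The share was 5.52% (4.81% to 6.29%) in the shared cortex regions, 3.97% in the basal-ganglia-only and 7.70% in the P3-cortex-only regions. Among cortex regions at or above the median −log10 q of the list, 1.63% of members and 7.10% of shared regions covered a start, and below it 1.01% and 2.16%. The shared cortex regions were also the wider ones, and the part of width in this difference was not tested. Without the basal ganglia list deciding membership, 3.88% of the regions kept covered a start.

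**Figure D3:**
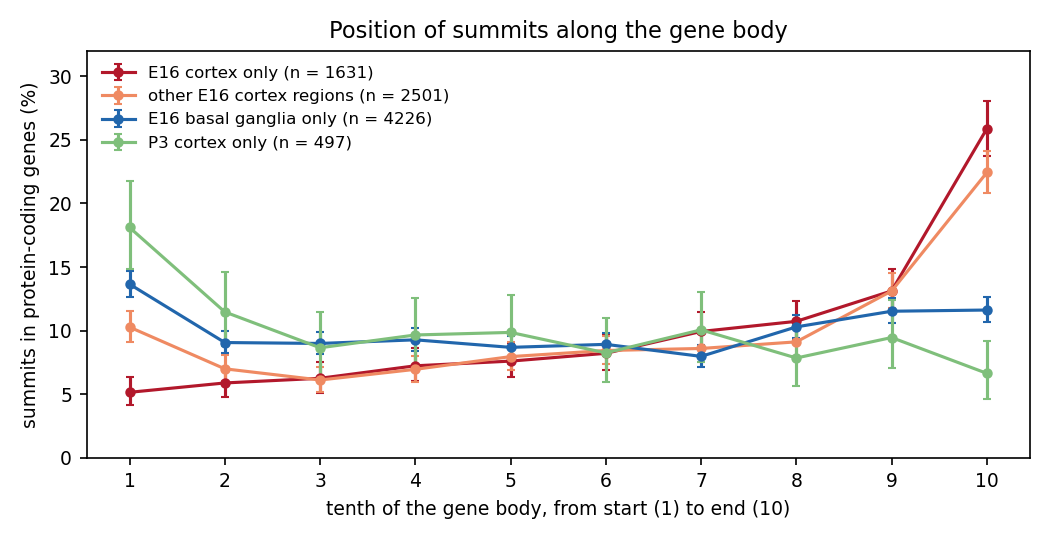
Share of summits (%) in each of 10 equal parts of the gene body, from start (1) to end (10), for cortex-only (n = 1631), shared cortex, basal-ganglia-only and P3-cortex-only regions in protein-coding genes with a known strand, with 95% Clopper-Pearson intervals as bars. In both sets of the E16 cortex list the last part is the fullest, with 25.9% of cortex-only and 22.4% of shared regions, and the P3-cortex-only regions peak in the first part with 18.1%.

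Gene groups were described by how many of their genes had a member's summit in the body or within 10 kb, beside the share over all 21631 protein-coding genes, which was 8.95% for cortex-only, 13.3% for shared cortex and 18.6% for basal-ganglia-only regions. The chance that a gene is reached grows with its length: 7.53% of genes under 20 kb and 12.6% of those over 100 kb had a member, and for the basal-ganglia-only regions 52.2% of the long genes. Counting genes of every type, 2619 of 49554 had a member (5.29%). Without the basal ganglia list in the rule the count moved by over 1.5 times in 12 of the 19 lists, for example to 17 of 18 patterning factors and 13 of 28 GABAergic factors, all upward. A stricter q, keeping only members at or above the median −log10 q of the list, lowered it by over 1.5 times in 12 lists, and joining regions up to 1 kb apart lowered it in 5, so the group counts below depend on these choices.

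Transcription factors of the glutamatergic cortical lineage had a member at 16 of 27 genes, against 20 with a shared cortex region and 20 with a basal-ganglia-only region. Neurog2, the proneural gene of cortical progenitors, had 3 E16 cortex regions, all cortex-only (3.45 and 3.90 in the gene and 5.00 outside it), and 0 in any other list. At Eomes, which marks intermediate progenitors, both cortex regions were cortex-only (highest 8.46) and the basal ganglia list had 1 (5.67). Nfib and Nfia belong to this group. At Neurod2 (7.38), Fezf2 (6.51) and Bcl11a (9 members, highest 5.43) the members stood beside stronger shared cortex regions, which reached 49.1, 34.0 and 21.2. Tbr1, Neurod6 and Bhlhe22 had no member, and their cortex regions were shared.

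Patterning and progenitor factors of the dorsal telencephalon had a member at 10 of 18 genes, against 15 with a shared region and 11 with a basal-ganglia-only region. The 10 became 4 at the stricter q and 6 when regions up to 1 kb apart were joined. Apart from Emx1, the members here were weak: the highest was 5.86 at Pax6, 5.28 at Nr2e1, 5.11 at Nr2f1 and 4.94 at Lhx2. Their shared cortex regions reached 17.98, 14.5, 48.7 and 33.1 in the same order. Among 18 genes for glutamate transporters and receptors, 4 had a member, which were Slc17a7, Slc17a6 (5.82), Grik3 (4.78) and Grik5 (4.78), and 2 did at the stricter q or with joining up to 1 kb.

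Of 28 transcription factors of the ganglionic eminences and GABAergic neurons, 6 had a member, among them Zeb2, Satb1, Meis2 and Ebf1, against 12 with a shared cortex region and 25 with a basal-ganglia-only region. The 6 became 3 at the stricter q and 13 without the basal ganglia list. Zeb2 had 15 members with a highest fold enrichment of 6.98. Of 7 genes for the synthesis and transport of GABA, 0 had a member, against 4 with a shared region and 5 with a basal-ganglia-only region. Gad1, which encodes a GABA-synthesizing enzyme, had 4 cortex regions against 13 of the basal ganglia, and Slc32a1, the vesicular GABA transporter, 4 against 7.

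Dlx genes and the chemokine genes of the series had a member at 0 of 10 genes. Cortex regions were present at Dlx1 (6), Dlx2 (5), Dlx5 (5) and Dlx6 (10), all of them shared with another list, and the lists had 0 regions at Cxcl14, a chemokine gene that the study names. The windows of Dlx1 and Dlx2 overlap, as do those of Dlx5 and Dlx6, so a region can count for both genes. Beside a background of 8.95%, 0 of 10 genes or 0 of 7 is no difference that lists of this size could show. Without the basal ganglia list in the rule, 4 genes of each of these lists had a member.

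**Figure D4:**
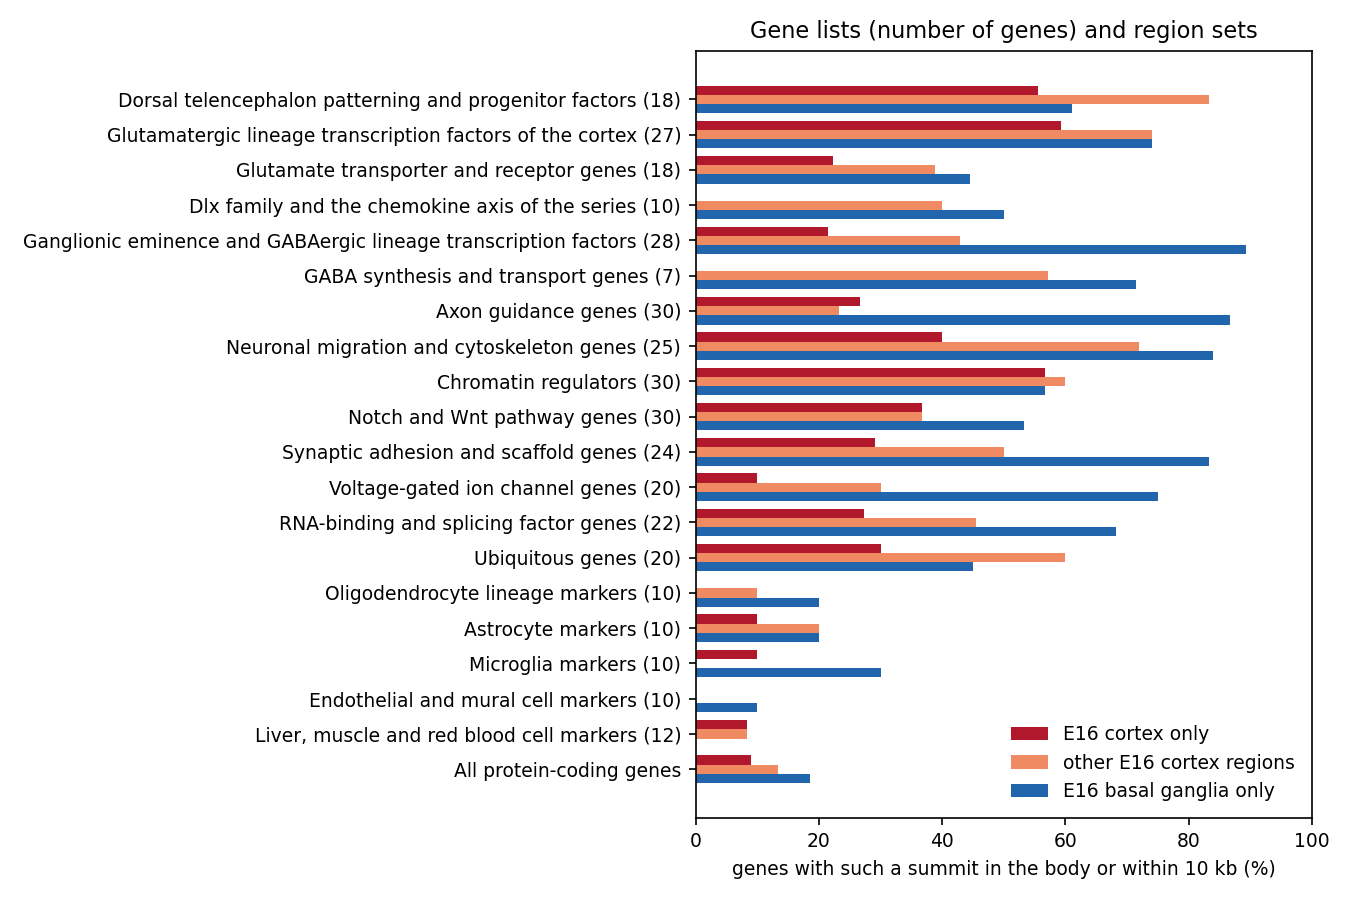
Share of the genes of each list (%) with a summit in the body or within 10 kb, for cortex-only, shared cortex and basal-ganglia-only regions, with the number of genes in parentheses and all protein-coding genes at the bottom. Cortex-only bars reach 59.3% in the glutamatergic factors, 56.7% in the chromatin regulators and 55.6% in the patterning factors, and 21.4% in the GABAergic factors, where the basal-ganglia-only bar is at 89.3%.

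Chromatin regulators had a member at 17 of 30 genes, against 18 with a shared and 17 with a basal-ganglia-only region, and at 11 at the stricter q. Besides Brd1 with 4 members, Gse1 had 11 (highest 10.6), Chd2 and Chd3, of remodelling enzymes, 3 and 4 (8.67 each), Hdac4, a histone deacetylase gene, 1 (8.03), Kmt2a, a histone H3K4 methyltransferase gene, 7 (5.43), Tet3, a DNA demethylation enzyme gene, 7 (5.86) and Chd4, a remodelling ATPase gene, 4 (7.59). At Kmt2a 9 cortex regions stood against 3 of the basal ganglia, while at Auts2 15 stood against 41, with 3 members (highest 8.89).

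Notch and Wnt pathway genes had a member at 11 of 30 genes, as many as had a shared region, against 16 with a basal-ganglia-only region. The 11 became 5 at the stricter q and 7 with joining up to 1 kb. By role these were the ligands Wnt7b (4 members, highest 5.43) and Wnt7a (1, 4.39), the receptors Notch1 (2, 5.21), Notch2 (3, 6.73), Fzd9 (2, 4.39) and Lrp6 (1, 3.85), the Notch modifier Lfng (2, 4.78), the effectors Ctnnb1 (4, 4.94) and Tcf7l2 (1, 4.13), and, of the complex that degrades beta-catenin, Axin2 (8, 9.54) and Apc2 (2, 4.35). Axin2, a feedback inhibitor and common readout of Wnt signalling, had 11 cortex regions against 3 of the basal ganglia.

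Genes of neuronal migration and the cytoskeleton had a member at 10 of 25, led by Kif21a (6.94), Ank3 (6.51) and Map2 (6.51), against 21 with a basal-ganglia-only region. Axon guidance genes had a member at 8 of 30, among them Nrp1 (5.86) and Sema3f (5.65), against 26. Synaptic adhesion and scaffold genes had a member at 7 of 24, with Ptprs highest (8 members, 8.46), against 20, and voltage-gated ion channel genes at 2 of 20, Cacna1c (5.43) and Cacna1a (4.35), against 15. At the stricter q these counts became 4, 4, 2 and 1 in the same order. These groups hold many long genes. RNA-binding protein genes had a member at 6 of 22, with Srrm4, a neuronal splicing factor gene, at 7.13 and Msi1 at 6.29, against 15.

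Ubiquitous genes, such as Actb, had a member at 6 of 20, against 12 with a shared and 9 with a basal-ganglia-only region, and at 0 at the stricter q. The highest there were 4.78 at Rps18, 4.56 at Rpl13a and 4.35 at Actb. Their shared cortex regions were stronger, 27.5, 21.4 and 15.1 in the same order. Of 52 markers of other cell types, 3 had a member, against 4 with a shared and 8 with a basal-ganglia-only region. These were the astrocyte marker Fgfr3 (6.94), the microglia marker Aif1 (4.78) and the muscle marker Ckm (4.35), while oligodendrocyte and vascular markers had 0 of 10 each. At the stricter q the microglia and muscle counts were also 0. They were 0 too with the gene body alone or 5 kb on each side, so these summits lay over 5 kb from Aif1 and Ckm.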

How the data were processed

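Dlx2 ChIP-seq of mouse brain tissue was analysed from 5 lists of called regions in the narrowPeak layout, 1 per immunoprecipitated library. Per the labels' protocols, tissue was fixed in 1.5% formaldehyde, sheared to fragments of 300 to 1000 bp, precipitated with 5 µg of antibody and sequenced as single-end reads of 50 nucleotides. Per the submitters' processing notes, which give no versions, the authors used Trimmomatic, Bowtie2, SAMtools, MACS2 and the build mm10. The sources used here give neither the peak-calling threshold nor the control library nor the depth. Fold enrichment is a ratio deposited by the authors, and −log10 p and −log10 q were also deposited by the authors, both per region in its own library. The score column deposited by the authors was the whole-number part of 10 times −log10 q in 25662 of 25667 rows and was not used further, nor was −log10 p. Fold enrichment and −log10 q served to describe regions and to rank them inside their own list.

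Lists on chromosomes 1 to 19 and X were pooled and merged at an overlap of at least 1 bp, and coordinates are counted from 1. Gene positions were those of RefSeq for GRCm38.p6, which is mm10 (49554 genes on these chromosomes, 21631 protein-coding), and starts and strand from its promoter table, which has no entry for chromosome 18. Strand was known for 17274 protein-coding genes. The gene at a summit is the one whose body holds it (protein-coding first, then the shortest), else the nearest. Regions prone to artifact signal were not removed. Named genes were those at the 20 most significant members and the 5 widest, the 10 genes with most members, up to 6 per list by fold enrichment, the edge of the rule and the Dlx genes with Cxcl14; Neurog2, Bcl11a, Tbr1, Neurod6, Bhlhe22, Kmt2a, Tet3, Chd4, the Notch and Wnt genes beyond the first 6, the genes of microRNAs and printed promoters and those without a summit of another list were chosen after their values were seen. A few genes that the rule takes are not reported here. The members and the 19 gene lists (358 genes, all found) were chosen with earlier results of these data known. Analyses used Python 3.11.15, pandas 2.3.3, NumPy 2.4.6 and SciPy 1.17.1, and the merging was tested on simulated regions. Alternatives were other joining rules, a stricter q, other gene windows and leaving out each list.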

Additional observations from a re-analysis of the deposited data

Results flagged for a closer look

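A signal appeared outside the chromosomes that were compared: the E16 cortex list had 25 regions on chromosome Y, which the rule leaves out. Of these, 18 overlapped a region of the E16 basal ganglia list. Their fold enrichment had a median of 5.48 (2.58 to 24.4), and their widths ran from 307 to 14321 bp. The basal ganglia list had 27 regions there and each of the other lists 1. Sex of the animals is not given in the sources used here, and the part of sex in these counts was not tested.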

How the results depend on the processing

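No paired analysis was possible because each group has 1 library, and for the same reason no value has a replicate error. Joining regions up to 1 kb apart gave 93.1% of members inside genes, 6.86% outside and 15.8% within 1 kb of a gene boundary (17.9% as reported). Keeping every E16 cortex region with no other list within 200 bp of its summit gave 2514 regions, 9.27% of them wider than 1 kb. Keeping members at or above the median −log10 q gave 978 regions, a median fold enrichment of 5.65, 17.3% wider than 1 kb, 15.5% near a boundary, 1258 genes and 29.1% in the last 10% of the gene. With protein-coding genes alone, 88.9% were inside, 11.1% outside and 14.3% near a boundary. Genes with a member numbered 2619 of all types, 1366 with the body alone and 5947 with 50 kb on each side. Of the 19 gene lists, the count moved by over 1.5 times in 12 at the stricter q, in 5 with joining, in 12 without the basal ganglia list, in 3 with the body alone and in 2 each with 5 kb and 50 kb on each side. Leaving out each other list in turn gave 2427 to 6118 members, a median fold enrichment of 4.56 to 5.03, 7.33% to 25.3% wider than 1 kb, 91.5% to 92.1% inside genes, 7.90% to 8.55% outside, 17.9% to 22.2% near a boundary, 2619 to 5174 genes, 24.2% to 25.9% in the last 10% and 1.26% to 3.88% over a gene start. The value farthest from the reported one came each time without the basal ganglia list. The alternatives for the last 10% and for gene starts were chosen after seeing the data. Depth is unknown, so how many members a deeper basal ganglia library would remove cannot be given.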

Other observations

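The 192 members outside annotated genes divided by strength. The 7 with a fold enrichment of at least 10 (10.2 to 15.6) were 549 to 582 bp wide, with a median of 558 bp, and none had another member within 934 kb. They include the regions near Gm18326, Olfr854, Gm6216 and Gm13580. The 33 members inside genes at that strength were 556 to 6435 bp wide, with a median of 1369 bp, and 18 had another member within 10 kb. Just below the cut, members outside genes were mixed. Those of highest significance were near Emx1 (9.98, 1584 bp wide, 10412 bp from another member), Ier5 (9.11, 777 bp, 97119 bp) and Tfap2c (9.11, 719 bp, 76 bp). The region near Gm23437 (8.24, 547 bp, 1779266 bp) resembled the 7. Input signal at these places was not analysed here.

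By chromosome, members were 52.3% of the E16 cortex regions on chromosome 16 (68 of 130, 43.4% to 61.1%), the highest share. The lowest was 25.99% on chromosome 13 (46 of 177, 19.7% to 33.1%), and the share over all chromosomes was 38.5%. These were named as the extremes, and no difference between chromosomes was tested. Chromosome 18 followed the highest at 48.8% and chromosome 4 at 46.6%. Chromosome 4 held 257 members (10.6%), against 7.60% of the shared cortex regions and 6.52% of the basal-ganglia-only regions. Of the 257, 34 lay in the body of Nfib and 13 in that of Nfia.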
